A study of Ovis aries with 6 samples.

Results

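Potassium channels are membrane proteins that let potassium ions leave or enter a cell, and their genes carry symbols that begin with KCN. The set described here held the 94 genes of the deposited tables whose gene name begins with KCN, of 26067 features in all, and 1 further gene with such a name was not analysed here. All 94 symbols were found in a RefSeq gene table of the sheep. The genes were sorted by the letters after KCN into 40 voltage-gated channel genes, 8 genes of calcium- or sodium-activated channels, 14 inward rectifier genes (KCNJ), 15 leak channel genes (KCNK) and 17 genes of auxiliary subunits.

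Transcripts were read as amplified full-length cDNA on a Nanopore instrument, from 6 samples whose label is hypothalamus. The HP group held 3 healthy small-tailed Han sheep, a breed the submitters class as high in reproduction, and the LP group 3 healthy Wadi sheep, classed as low, so breed and class were 1 split. No treatment, age, sex, batch or pairing is given in the sources used here. Only the number in a column's name ties it to a sample, because the letter before it differs from that of the sample titles, and every statement on HP or LP rests on that match.

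Neurons fire because sodium and calcium channels depolarise them and potassium channels bring the membrane back to rest. Voltage-gated channels open with depolarisation and shape the spike and the interval to the next one, inward rectifiers and leak channels hold the resting potential, and calcium- or sodium-activated channels couple firing to ion entry. Most pores are built from several alpha subunits, and auxiliary subunits change how fast the pore opens, closes or reaches the membrane. In endocrine cells of the pituitary, the same families set the bursts of activity that drive hormone release.

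The libraries held 1981644 to 2732911 counts, and the split between HP and LP touched a large part of all genes. Over the 13078 tested genes, 51.2% had an adjusted p under 0.05 (edgeR's quasi-likelihood model, Benjamini-Hochberg over all genes tested), 27.1% as higher in HP and 24.1% as higher in LP. Marker lists moved with the groups. Of 12 anterior pituitary markers, 10 were tested and all 10 were higher in LP, with a summed level of 49.0 to 142 CPM (counts scaled to 1000000 per library) in HP and 47171 to 299903 CPM in LP. Among the 12 listed, TSHB, PITX1 and POU1F1 were at 0 counts in all HP libraries, and PITX1 was not tested. Of 8 cerebellar granule cell markers all 8 were higher in HP, with a summed 3876 to 4221 CPM against 11.2 to 111.5 CPM in LP, and of 6 Purkinje cell markers 5 were, with 2419 to 3375 against 219.5 to 347 CPM. Of 11 neuronal markers 10 were tested and 8 were higher in HP, at a summed 5338 to 5817 CPM against 456 to 930 CPM. Of 12 markers that define the hypothalamus, only POMC (called toward LP) and TRH (called toward HP) had enough counts for a test, and GNRH1, KISS1, HCRT and NKX2-1 were at 0 counts in all 6 libraries. Astrocyte markers (6 genes) summed to 3764 to 5052 CPM in HP and to 155, 125 and 10019 CPM in LP replicates 1, 2 and 3, and oligodendrocyte markers (3 genes) to 71.4 to 170 CPM in HP and to 6.13, 1.65 and 3221 CPM in LP. S100B supplied most of the astrocyte sum in every library. Endothelial and mural cell markers (9 genes) reached 3739 CPM in LP replicate 1 against 90.1 and 296 CPM in LP replicates 2 and 3 and 156 to 230.1 CPM in HP, and 2 of 6 tested were higher in LP. Most of the 3739 CPM came from ACTA2 and RGS5. Of 5 fibroblast markers 3 were higher in LP, at a summed 83.2 to 204 CPM in HP and 163 to 1439 CPM in LP, and of 5 choroid plexus markers 2 were tested and none was called by edgeR (1 toward LP at an unadjusted p of 0.05, 1 toward LP by DESeq2 and 0 by limma-voom). The choroid plexus sum was 107, 113 and 4530 CPM in HP replicates 1, 2 and 3 and 42.9, 8.68 and 7370 CPM in LP replicates 1, 2 and 3. In the third library of each group, which stood apart, nearly all of the sum came from a single gene of the 5. The part of these cell types in the channel results below was not tested, and in such bulk samples fewer cells of a type and less RNA per cell cannot be told apart.

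The summed level of potassium channel transcripts was higher in HP, and so were the sums of 4 of the 5 classes. The sum was 8060, 6276 and 6186 CPM of the library total in HP replicates 1, 2 and 3 and 1347, 1035 and 1395 CPM in LP replicates 1, 2 and 3, so the groups did not overlap, at 6841 ± 1057 and 1259 ± 195 CPM (SD, n = 3 each). Between 67 and 69 of the 94 genes had at least 1 count in an HP library and between 60 and 68 in an LP library. The calcium- or sodium-activated class overlapped between groups, with a summed 118, 126 and 98.4 CPM in HP and 179.5, 123 and 47.9 CPM in LP.

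**Figure D1:**
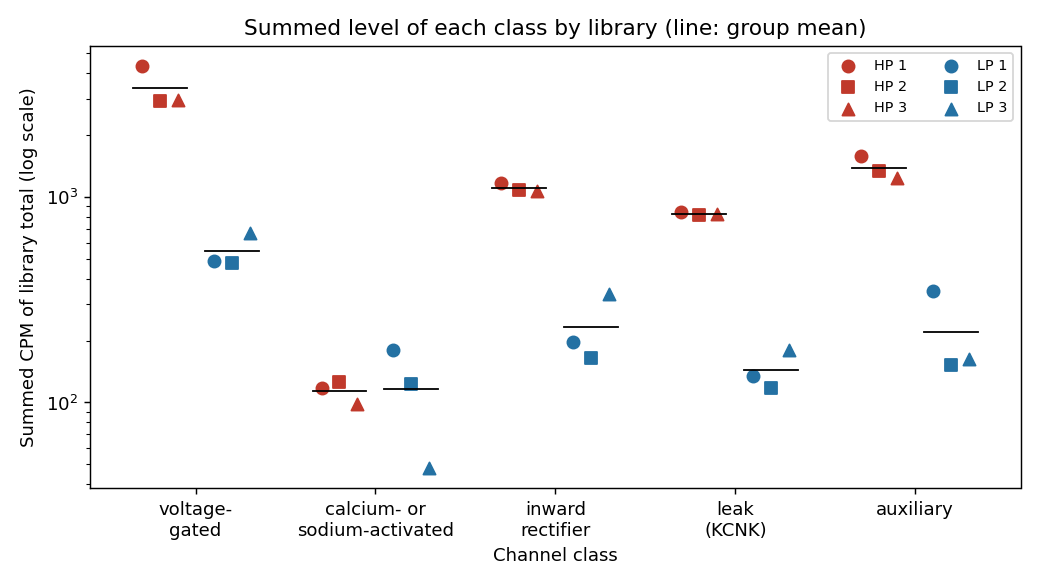
Summed level of the genes of each channel class in each library, in CPM of the library total on a logarithmic axis. Points are libraries (red HP, blue LP) and lines are group means. In the voltage-gated, inward rectifier, leak and auxiliary classes all 3 HP libraries lay above all 3 LP libraries, whereas the calcium- or sodium-activated class overlapped, at 98.4 to 126 CPM in HP and 47.9 to 179.5 CPM in LP.

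Of the 94 genes, 44 had enough counts for the gene test. Among these 23 were higher in HP (52.3% of those tested, where 27.1% of all tested genes were) and 3 were higher in LP (6.82%, where 24.1% were), and 18 missed the threshold. The median log2 fold change, HP minus LP, was 1.60 over the 44 genes and 0.02 over all tested genes. These shares describe the genes that passed the filter on low counts. Of the 44, 7 had under 10 counts in every LP library and at least 10 in every HP library, and 1 had the reverse, so the filter admitted them through a single group. Further genes had at least 10 counts in every HP library but under 10 in part of the LP libraries, and they too passed only with the HP libraries. Among these were KCNA1, KCNA3, KCND3, KCNIP3, KCNJ9, KCNJ11 and KCNK12, all called toward HP. All HP values lay above all LP values in 25 of the 44 genes (33.9% of all tested genes did so), and all LP values above all HP values in 2 (29.0%). Below, CPM of single genes use library totals scaled with TMM factors, with the SD over the 3 libraries of a group. Folds are the higher over the lower group as fitted, and CPM and shares of a family's counts are not adjusted for transcript length, so neither ranks genes by molecules.

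**Figure D2:**
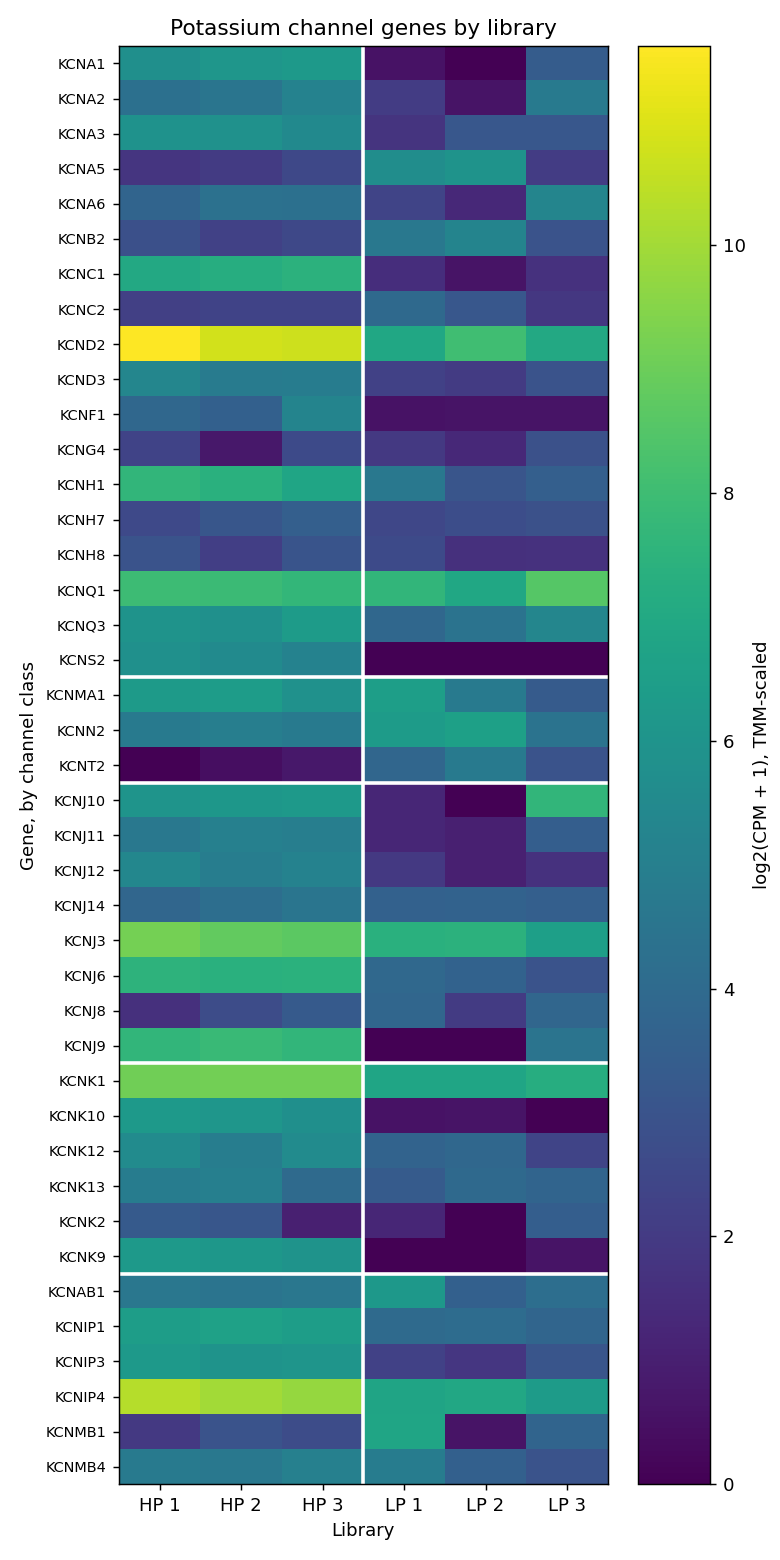
Level of 41 of the 44 tested genes in each library, as log2(CPM + 1) with TMM-scaled totals. Rows are genes, with white lines between the voltage-gated, calcium- or sodium-activated, inward rectifier, leak and auxiliary classes from top to bottom, and columns are libraries. KCND2 and KCNIP4 are bright in HP (KCND2 at 2207 CPM, KCNIP4 at 1060 CPM on average), KCNS2 is at 0 in all LP libraries, and KCNJ10 is bright in LP replicate 3 alone among the LP libraries.

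Among voltage-gated channel genes, 10 of 21 tested were higher in HP and 2 were higher in LP, and 19 of the 40 genes were not tested. The shares were 47.6% and 9.52%, where 27.1% and 24.1% of all tested genes were called. The summed level was 2916 to 4338 CPM in HP and 479 to 666 CPM in LP. The Kv4 channel gene KCND2, whose product carries the fast inactivating A-type current of dendrites, supplied much of it, with 7715, 5206 and 5042 counts in HP against 260, 515 and 244 in LP. All HP libraries were far above all LP libraries, at 2207 ± 793 CPM (SD, n = 3) and 172 ± 82.4 CPM (SD, n = 3), a log2 difference of 3.68 ± 0.45 (SE) or 12.8-fold (edgeR, adjusted p = 0.00122). KCND2 alone held 41.0%, 30.4% and 30.8% of all potassium channel counts in the HP libraries and 8.45%, 20.6% and 8.83% in the LP libraries. KCND3, another Kv4 gene, had 98, 80 and 84 counts in HP against 8, 6 and 13 in LP, a fold of 6.95 (edgeR, adjusted p = 0.00157), or of 42.4 and 57.4 with the deposited TPM and a pseudocount of 1 and 0.1. KCND1, the remaining Kv4 gene, had no count in any library, which allows up to 1.10 to 1.51 CPM per library (3 counts, counting error only).

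The auxiliary subunits of Kv4 channels went the same way. KCNIP4, KCNIP1 and KCNIP3 encode calcium-binding proteins that attach to the channel's inner end and change its surface level and inactivation. KCNIP4 had 3151, 2997 and 2584 counts in HP against 236, 238 and 154 in LP, 1060 ± 201 and 105 ± 21.2 CPM (SD, n = 3 each), a log2 difference of 3.34 ± 0.28 (SE) or 10.1-fold (edgeR, adjusted p = 4.86e-04). KCNIP1 had 218, 289 and 257 counts in HP against 33, 31 and 24 in LP, a log2 difference of 2.64 ± 0.22 (SE) or 6.23-fold (edgeR, adjusted p = 4.68e-04). KCNIP3 had 188, 178 and 190 counts in HP against 8, 5 and 14 in LP, a log2 difference of 3.87 ± 0.39 (SE) or 14.7-fold (edgeR, adjusted p = 7.14e-04). In each of the 3 genes the lowest HP library was above the highest LP library. KCNIP2, the fourth member, had 7, 2 and 5 counts in HP against 4, 6 and 12 in LP and was not tested. The transmembrane partners of Kv4 were higher in HP as well. DPP10, with 225, 165 and 259 counts in HP against 40, 9 and 51 in LP, was 4.69-fold higher in HP (edgeR, adjusted p = 0.0134). DPP6 had 1429, 1124 and 990 counts in HP against 498, 355 and 349 in LP, higher in HP by 1.12 on the log2 scale (edgeR, adjusted p = 0.0114).

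The Kv3 genes encode fast channels that let neurons fire at high rates. KCNC1 had 317, 442 and 518 counts in HP against 4, 1 and 4 in LP, 152 ± 23.8 against 1.49 ± 0.855 CPM (SD, n = 3 each), a log2 difference of 6.61 ± 0.42 (SE) or 98.0-fold (edgeR, adjusted p = 3.16e-04). The gene was nearly silent in every LP library. KCNC2 ran the other way in its counts, with 9, 12 and 12 in HP and 32, 15 and 5 in LP, but missed the threshold (edgeR, adjusted p = 0.147) unless LP replicate 3 was left out (adjusted p = 0.0157, 2.91-fold higher in LP), and its fold was 1.31 without LP replicate 1. Within the family, KCNC1 made up 87.8%, 90.2% and 88.5% of the counts in the HP libraries. In the LP libraries KCNC2 had the most counts, at 80.0% (95% Wilson interval 65.2 to 89.5) of 40 counts, 65.2% (44.9 to 81.2) of 23 and 45.5% (21.3 to 72.0) of 11. KCNC2 was at 2.05% to 2.49% of the family in HP. KCNC4 had 2 to 6 counts per library and was not tested.

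The Kv1 family, delayed rectifiers placed at axons and their terminals, also changed its make-up. KCNA1 had 135, 198 and 217 counts in HP against 1, 0 and 18 in LP, 65.4 ± 9.77 against 3.33 ± 5.37 CPM (SD, n = 3 each), 19.8-fold higher in HP (edgeR, adjusted p = 0.00987). Nearly all of its LP counts came from LP replicate 3, and without that library the ratio of counts per depth was 271 (95% counting interval 48.4 to 10716). KCNA3 had 148, 167 and 131 counts in HP against 5, 15 and 15 in LP, a log2 difference of 3.17 ± 0.44 (SE) or 8.99-fold (edgeR, adjusted p = 0.00173). KCNA2 and KCNA6 missed the threshold (adjusted p = 0.264 and 0.862, edgeR). KCNA2 had 46, 64 and 100 counts in HP against 7, 1 and 48 in LP, and KCNA6 had 31, 56 and 55 in HP against 9, 3 and 72 in LP. Both were low in LP replicates 1 and 2, whereas in LP replicate 3 KCNA2 lay within the HP range and KCNA6 above it, and without LP replicate 3 they were 12.3-fold and 5.60-fold higher in HP (adjusted p = 0.00186 and 0.00368). The summed markers of astrocytes, oligodendrocytes, microglia and choroid plexus were all highest in that same library. A link of KCNA2 or KCNA6 to any of these lists was not tested.

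KCNA5, a Kv1 gene best known from heart and vascular muscle, was higher in LP. It had 6, 9 and 14 counts in HP against 110, 118 and 6 in LP, 3.42 ± 1.20 against 38.3 ± 30.9 CPM (SD, n = 3 each), a log2 difference of -3.46 ± 0.94 (SE) or 11.0-fold (edgeR, adjusted p = 0.0188). LP replicates 1 and 2 were high and LP replicate 3 lay within the HP range, so the groups overlapped. The call did not hold without HP replicate 1, 2 or 3 (then at an adjusted p of 0.0835, 0.0775 and 0.0551), with limma-voom (0.144) and with the deposited TPM (0.0522 to 0.0995). KCNA5 made up 82.1% (95% Wilson interval 74.7 to 87.7) and 73.3% (66.0 to 79.5) of Kv1 counts in LP replicates 1 and 2 and 3.73% (1.72 to 7.89) in LP replicate 3. In HP it made up 1.63% to 2.69%. KCNA4, with 24 counts in LP replicate 2 and 2 to 4 elsewhere, was not tested, KCNA7 had 1 count in all, and KCNA10 had none.

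**Figure D3:**
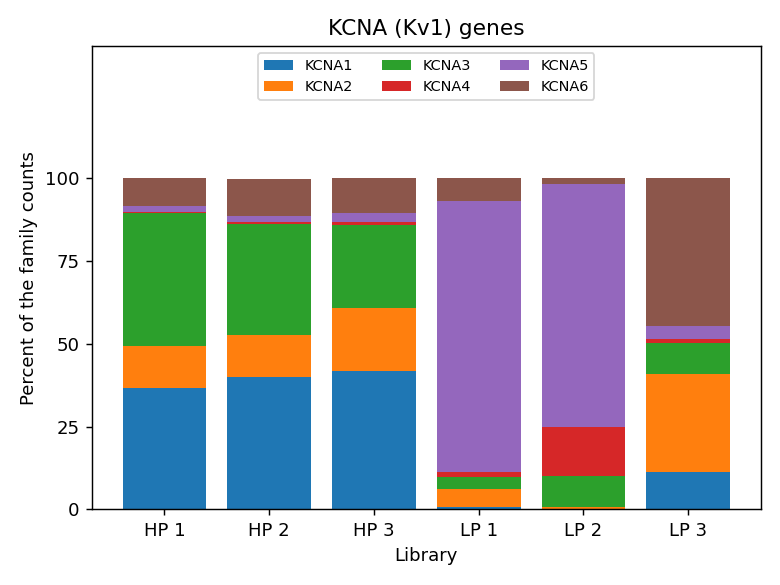
Share of each gene in the counts of its family in each library, in percent, for the KCNA (Kv1) genes. Bars are libraries, and genes at 1% or less of the family in every library are left out. KCNA5 fills 82.1% and 73.3% of the Kv1 bar in LP replicates 1 and 2 but 3.73% in LP replicate 3, and 1.63% to 2.69% in HP.

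Kv2 channels carry much of the delayed rectifier current of cell bodies, and a set of silent subunits that form no channel alone joins them and changes their behaviour. The Kv2 gene KCNB2 was higher in LP, with 15, 11 and 14 counts in HP against 52, 71 and 13 in LP, a log2 difference of -2.21 ± 0.60 (SE) or 4.62-fold (edgeR, adjusted p = 0.0184). Its groups did not overlap in CPM, but LP replicate 3 was close to HP, and the call did not hold without HP replicate 1, 2 or 3 (then at an adjusted p of 0.0596, 0.0829 and 0.0678). The silent subunit genes behaved differently. KCNS2 had 136, 133 and 101 counts in HP against none in LP. With a floor of 3 counts in each LP library it was at least 29.8-fold higher in HP (edgeR, adjusted p = 6.89e-04). The deposited TPM of KCNS2 was low, at 2.00, 1.81 and 1.66 in HP and 0 in LP. Its smallest log2 difference under any alternative was 1.50, toward HP. KCNF1 had 34, 31 and 107 counts in HP against 1 in each LP library, a ratio of counts per depth of 41.2 (95% counting interval 13.9 to 202, edgeR, adjusted p = 0.00177), and of 24.1 (7.89 to 120) without HP replicate 3. KCNG4 was not called (edgeR, adjusted p = 0.910), at 10, 2 and 15 counts in HP against 6, 3 and 12 in LP. Its log2 difference of -0.11 turned to 0.53 without LP replicate 3 and 0.45 without HP replicate 2 (adjusted p = 0.600 and 0.619). KCNV1 had 8, 8 and 11 counts in HP against 0, 0 and 2 in LP, and KCNG1, KCNG2, KCNG3 and KCNS3 had at most 4 counts in a library; none of these 5 was tested. KCNS1 and KCNV2 had no count in any library.

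The KCNH and KCNQ genes were called in 2 of 6 tested members. That was 33.3% of the tested genes of each family, where 51.2% of all tested genes were called. KCNH1, an ether-à-go-go channel gene, had 488, 472 and 331 counts in HP against 53, 14 and 20 in LP, a log2 difference of 3.47 ± 0.48 (SE) or 11.1-fold (edgeR, adjusted p = 0.00169), and 17.6-fold without LP replicate 1. KCNH7 and KCNH8 were not called (edgeR, adjusted p = 0.336 and 0.178), at 12, 22 and 31 and at 17, 10 and 21 counts in HP and at 10, 11 and 12 and 11, 4 and 4 in LP. The other 5 KCNH genes were not tested, among them KCNH2, a cardiac repolarisation gene, KCNH3 and KCNH4 with at most 2 counts in a library, KCNH5 with 10, 8 and 6 counts in HP against 1, 4 and 8 in LP, and KCNH6 with 1, 0 and 0 in HP and 8, 5 and 0 in LP. KCNQ3, a subunit of the M-current that brakes repetitive firing, had 151, 160 and 241 counts in HP against 30, 39 and 73 in LP. It was 2.73-fold higher in HP (edgeR, adjusted p = 0.0197), but missed the threshold without HP replicate 3 (0.0623) and with the deposited TPM (0.168 to 0.255, at 1.29-fold with a pseudocount of 1).

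KCNQ1, best known from heart and epithelia, was not called (edgeR, adjusted p = 0.984), with 612, 706 and 612 counts in HP against 428, 229 and 712 in LP. In mammals an antisense transcript overlaps KCNQ1, no feature name that begins with KCN stands for it here, and whether counting used the strand is not given in the sources used here, so this count may hold reads of either. KCNQ5 had 2 counts in LP replicate 3 and none elsewhere.

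**Figure D4:**
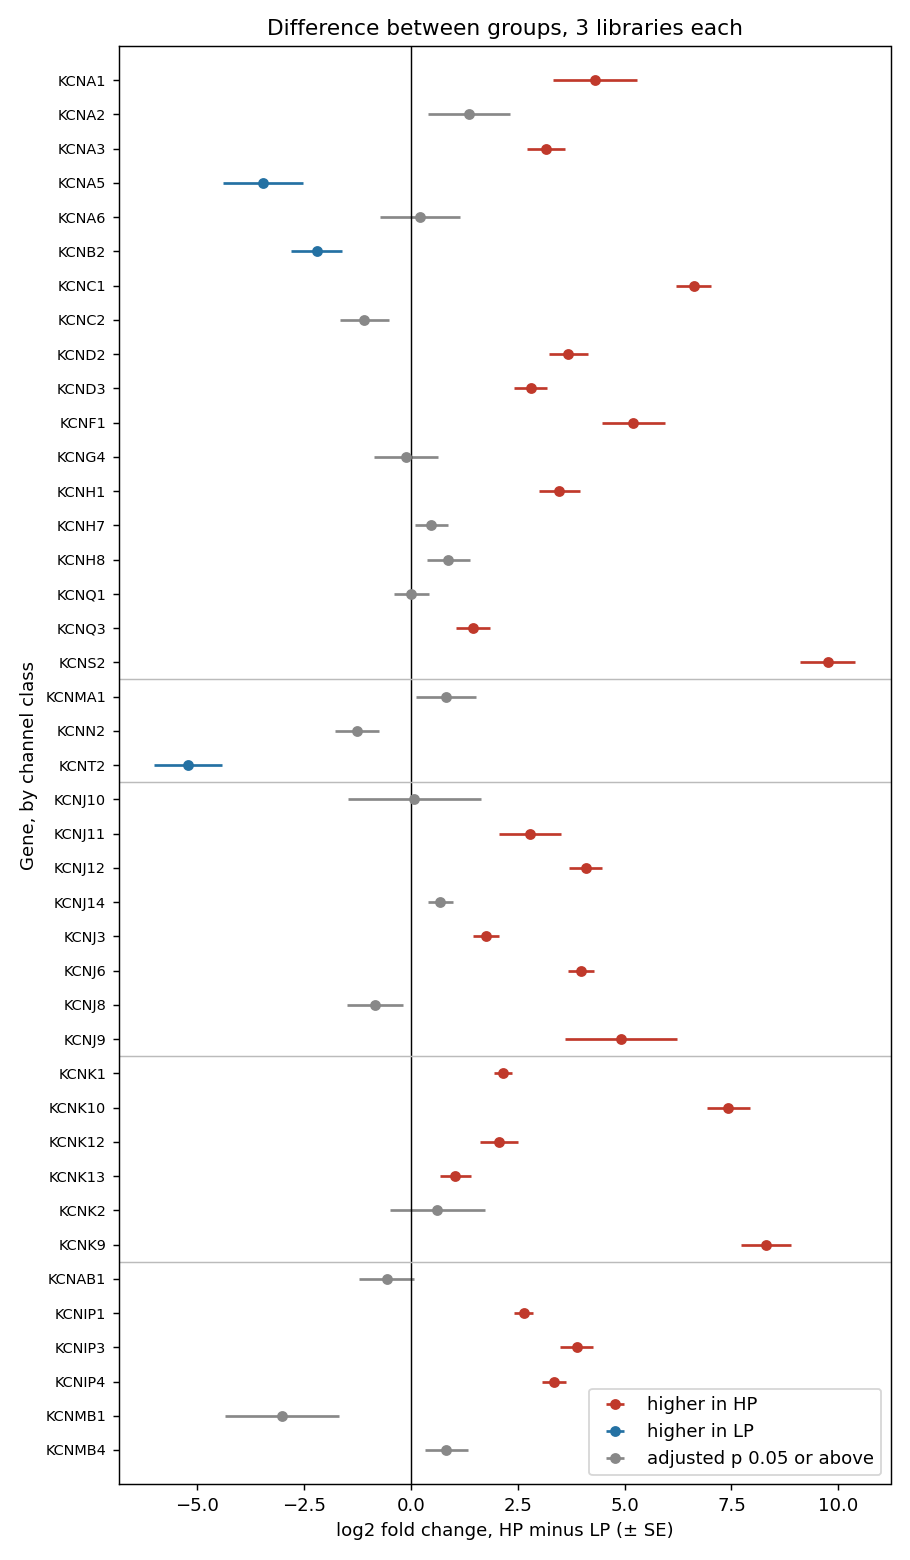
Log2 fold change, HP minus LP, of 41 of the 44 tested genes by class, with its standard error from the edgeR fit on 3 libraries per group. Red points were higher in HP, blue points higher in LP and grey points at an adjusted p of 0.05 or above. Of the points, 22 are red and 3 are blue (KCNA5, KCNB2 and KCNT2), and the points of KCNS2, KCNK9 and KCNK10, whose LP counts were 0 to 2 in all, depend on the prior count of the fit.

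By edgeR, 5 of 8 tested inward rectifier genes (62.5%) were called toward HP and none toward LP. None was called toward LP at an unadjusted p of 0.05, by DESeq2 or by limma-voom either. Over all tested genes, edgeR called 27.1% toward HP and 24.1% toward LP, and 8 genes are few for a comparison with these shares. The summed level was 1064 to 1172 CPM in HP and 164 to 338 CPM in LP. The genes KCNJ3, KCNJ5, KCNJ6 and KCNJ9 encode channels opened by G proteins, through which opioid, GABA-B and other receptors quiet neurons. KCNJ6 had 447, 479 and 504 counts in HP against 31, 22 and 13 in LP, 172 ± 8.28 against 10.9 ± 3.73 CPM (SD, n = 3 each), a log2 difference of 3.98 ± 0.30 (SE) or 15.7-fold (edgeR, adjusted p = 3.76e-04). KCNJ3 had 1445, 1331 and 1219 counts in HP against 354, 340 and 174 in LP, a log2 difference of 1.75 ± 0.31 (SE) or 3.37-fold (edgeR, adjusted p = 0.00350). Neither gene overlapped between groups, and KCNJ3 kept a sizeable level in every LP library, at 144 ± 45.2 CPM (SD, n = 3). KCNJ9 had 485, 688 and 589 counts in HP against 0, 0 and 40 in LP, 30.2-fold higher in HP as fitted (edgeR, adjusted p = 0.0181). All of its LP counts came from LP replicate 3. It was at least 144-fold higher without that library and 20.0-fold without LP replicate 1, and the call did not hold without HP replicate 1 or 2 (then at an adjusted p of 0.0571 and 0.0576) and with DESeq2 (0.0619). KCNJ5, the fourth subunit of this kind, had 1, 2 and 0 counts in LP and 0 in each HP library. LP replicates 1 and 2 thus held KCNJ3 counts but none of KCNJ9.

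Of the channels closed by ATP, which couple membrane potential to metabolism, KCNJ11 was called. It had 59, 93 and 88 counts in HP against 3, 2 and 19 in LP, a log2 difference of 2.79 ± 0.72 (SE) or 6.91-fold (edgeR, adjusted p = 0.0159), 22.1-fold without LP replicate 3, and it missed the threshold without HP replicate 2 (0.0543). Its regulatory partner ABCC8 had 20, 39 and 85 counts in HP against 1, 3 and 37 in LP and was not called (edgeR, adjusted p = 0.350), except without LP replicate 3 (16.1-fold, adjusted p = 0.00463). KCNJ8, the vascular pore subunit, was not called (edgeR, adjusted p = 0.315), at 5, 16 and 26 counts in HP against 29, 6 and 25 in LP. Its partner ABCC9 had at most 5 counts in a library.

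KCNJ12, a strong inward rectifier, had 101, 84 and 101 counts in HP against 6, 2 and 4 in LP, a log2 difference of 4.09 ± 0.39 (SE) or 17.0-fold (edgeR, adjusted p = 6.40e-04). KCNJ14 had 33, 51 and 65 counts in HP against 24, 22 and 20 in LP, without overlap, and missed the threshold (edgeR, adjusted p = 0.0872), but was called with library totals in place of TMM factors (0.0393). KCNJ10, which takes up potassium in astrocytes and oligodendrocytes, had 157, 206 and 217 counts in HP against 3, 0 and 370 in LP. Its level was 69.3 ± 5.21 CPM in HP and 65.8 ± 113 CPM in LP (SD, n = 3 each). It was not called (edgeR, adjusted p = 0.971), but without LP replicate 3 it was, with a ratio of counts per depth of 95.2 (95% counting interval 32.4 to 463) toward HP and an adjusted p of 1.42e-04. The astrocyte marker S100B had the same pattern, with 7689, 12276 and 10870 counts in HP against 236, 241 and 18514 in LP. The other astrocyte markers were also below all HP libraries in LP replicates 1 and 2. In LP replicate 3 they lay above, within or below the HP range, depending on the gene. KCNJ2, KCNJ16, KCNJ1, KCNJ4 and KCNJ15 had at most 4 counts in a library, and the last 3 had none.

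By edgeR, 5 of 6 tested leak channel genes (83.3%) were called toward HP and 0 toward LP. Toward LP, 0 were called at an unadjusted p of 0.05, 0 by DESeq2 and 0 by limma-voom. Toward HP, DESeq2 and limma-voom each called 4. Over all tested genes, edgeR called 27.1% toward HP and 24.1% toward LP, and 6 genes are few for a comparison with these shares. Of the called genes, KCNK9, KCNK10 and KCNK12 passed the filter on low counts only with the HP libraries. The class sum was 841, 819 and 826 CPM in HP and 134, 118 and 180 CPM in LP. KCNK1, a weakly conducting member, had 1352, 1621 and 1642 counts in HP against 244, 220 and 278 in LP, 554 ± 5.69 against 125 ± 19.6 CPM (SD, n = 3 each), a log2 difference of 2.15 ± 0.21 (SE) or 4.45-fold (edgeR, adjusted p = 6.79e-04), and 14.8-fold and 14.9-fold with the deposited TPM and a pseudocount of 1 and 0.1. KCNK9, an acid-sensitive background channel known from cerebellar granule neurons of rodents, had 190, 205 and 180 counts in HP against 0, 0 and 1 in LP. The ratio of counts per depth was 414 (95% counting interval 73.9 to 16361, edgeR, adjusted p = 3.42e-04), or 264 (47.1 to 10430) without LP replicate 1, and without LP replicate 3 no LP count was left and the bound was at least 47.3-fold. KCNK10, a channel opened by stretch and lipids, had 192, 196 and 159 counts in HP against 1, 1 and 0 in LP, a ratio of counts per depth of 197 (95% counting interval 54.2 to 1628, edgeR, adjusted p = 3.39e-04). KCNK2, its closest relative, did not share that split, with 22, 22 and 3 counts in HP against 3, 0 and 19 in LP (edgeR, adjusted p = 0.663). KCNK9 and KCNK10 were thus at or near 0 in every LP library.

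KCNK12 and KCNK13 encode the halothane-inhibited channels. KCNK12 had 118, 84 and 142 counts in HP against 26, 26 and 8 in LP, 4.17-fold higher in HP (edgeR, adjusted p = 0.00799). KCNK13, a channel of microglia in rodents, had 69, 90 and 44 counts in HP against 20, 28 and 23 in LP, 2.05-fold higher in HP (edgeR, adjusted p = 0.0467). That call did not hold without HP replicate 1 or 2 or LP replicate 1 or 3 (then at an adjusted p of 0.113, 0.134, 0.119 and 0.0623), with DESeq2 and limma-voom (0.0565 and 0.0667), with at least 10 CPM in 3 libraries (0.0578) and without genes above 1% of a library (0.0589). Of 7 microglia markers, 6 were tested, 5 were higher in LP and none was higher in HP by edgeR, with a summed 32.2 to 49.0 CPM in HP and 112 to 242 CPM in LP. By limma-voom 3 were called toward LP, and by edgeR 24.1% of all tested genes were higher in LP. KCNK5 had 8, 13 and 5 counts in HP against 2, 0 and 23 in LP and KCNK6 3 to 8 in every library, and neither was tested. KCNK16, KCNK17 and KCNK18 had no count in any library, and KCNK3, KCNK4, KCNK7 and KCNK15 at most 3.

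Channels that open with intracellular calcium or sodium had 3 tested genes, too few to read against the 27.1% and 24.1% of all tested genes. None of the 3 was higher in HP by edgeR (0 at an unadjusted p of 0.05, 0 by DESeq2 and 0 by limma-voom), and 1 was higher in LP. KCNT2, a sodium-activated channel gene, had 0, 1 and 2 counts in HP against 29, 49 and 13 in LP, a ratio of counts per depth of 42.2 (95% counting interval 14.0 to 208, edgeR, adjusted p = 0.00231). All LP libraries were above all HP libraries, and without HP replicate 3 the ratio was 81.8 (14.3 to 3266). KCNT1, its relative, had at most 3 counts in a library. KCNN2, a small-conductance channel gene, had 66, 87 and 77 counts in HP against 176, 187 and 39 in LP. It was 2.40-fold higher in LP at an adjusted p of 0.0739 (edgeR), with LP replicates 1 and 2 above the HP libraries and LP replicate 3 below them. KCNN2 was called without LP replicate 3 (3.29-fold, adjusted p = 5.19e-04), with DESeq2 (0.0450) and with the deposited TPM after the same filter (0.0450 and 0.0489). KCNN3 had 8 to 19 counts in every library and was not tested, KCNN1 and KCNN4 had at most 3, and KCNU1, a sperm channel gene in mammals, had none.

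KCNMA1, the pore of the large-conductance BK channel, had 198, 243 and 168 counts in HP against 194, 51 and 17 in LP. In CPM, LP replicate 1 lay just above the HP libraries and the other LP libraries below them, and the gene was not called (edgeR, adjusted p = 0.357) unless LP replicate 1 was left out (4.15-fold higher in HP, adjusted p = 0.0168). Its smooth muscle subunit gene KCNMB1 had 7, 20 and 16 counts in HP against 241, 1 and 23 in LP and was not called (edgeR, adjusted p = 0.0957). KCNMB1 was 8.08-fold higher in LP as fitted, 1.23-fold without LP replicate 1, 12.5-fold without LP replicate 2 (adjusted p = 0.0142) and 11.2-fold without LP replicate 3 (0.0396), and DESeq2 called it (0.0251). In LP replicate 1 the smooth muscle actin gene ACTA2 had 5725 counts against 29 and 148 in LP replicates 2 and 3 and 78, 102 and 258 in HP, and RGS5, a pericyte gene, 2457 against 142 and 126 and 65, 79 and 132. Both were picked from the list of endothelial and mural cell markers. Of the other genes of that list, some were also highest in LP replicate 1 and others in LP replicate 3 or in HP. A link of KCNMB1 to these genes was not tested. The neuronal BK subunit gene KCNMB4 had 65, 71 and 95 counts in HP against 62, 21 and 13 in LP (edgeR, adjusted p = 0.200, or 0.0125 and 3.11-fold without LP replicate 1). KCNMB2 had 2, 2 and 5 counts in HP against 8, 24 and 6 in LP and was not tested.

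By edgeR, 3 of 6 tested auxiliary subunit genes (50%) were called toward HP, the KCNIP genes described with KCND2, and 0 toward LP. Toward LP, 0 were called at an unadjusted p of 0.05, 1 by DESeq2 and 0 by limma-voom. Over all tested genes, edgeR called 27.1% toward HP and 24.1% toward LP, and 6 genes are few for a comparison with these shares. KCNAB1, a beta subunit of Kv1 channels, had 57, 61 and 69 counts in HP against 155, 21 and 33 in LP and was not called (edgeR, adjusted p = 0.484). Its fitted log2 difference of -0.57 turned to 0.67 without LP replicate 1 (adjusted p = 0.136). KCNE genes, single-span partners of KCNQ1 and other channels, were too low to test. KCNE4 had 2, 4 and 2 counts in HP against 24, 4 and 18 in LP, KCNE5 4, 10 and 10 and 3, 10 and 2, KCNE3 had 4 counts in LP replicate 1 alone, KCNE1 1 count in LP replicate 3 alone, and KCNE2 none. KCNAB2 and KCNAB3, the other beta subunit genes, had at most 7 counts in a library, KCNMB3 at most 6, and none of these was tested. KCNRG, a suppressor of Kv channels, had 2 to 14 counts per library and was also too low.

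Across the 44 tested genes the CPM values spanned a wider range among the LP libraries than among the HP libraries. The highest over the lowest library in CPM had a median of 1.45 in HP, over 43 genes with counts in all HP libraries, and of 3.36 in LP, over 35 genes with counts in all LP libraries. Counting error widens this ratio at low counts, and many genes had far fewer counts in LP, such as KCNC1 at 4, 1 and 4. The medians also cover different genes, and the part of counting error was not tested. LP replicate 3 was the highest LP library in 19 of the 44 genes, LP replicate 2 in 14 and LP replicate 1 in 11. Leaving out a single LP library moved the fitted ratio of HP to LP by more than 1.5 times in 17 genes. For KCNA1, KCNA2, KCNA6, KCNJ9, KCNJ10 and KCNJ11 it was LP replicate 3 that held most LP counts, whereas for KCNAB1, KCNMA1, KCNMB1, KCNMB4 and KCNH1 it was LP replicate 1. Of the 18 genes not called, 8 turned direction under at least 1 alternative, among them KCNA6, KCNAB1, KCNG4, KCNH7, KCNJ10, KCNJ14 and KCNQ1. Without LP replicate 3, 26 channel genes were called toward HP and 6 toward LP, against 23 and 3 in all libraries, and the median log2 fold change was 2.50. Without LP replicate 2, 5 were higher in LP, and without HP replicate 1 or HP replicate 3 only 1.

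**Figure D5:**
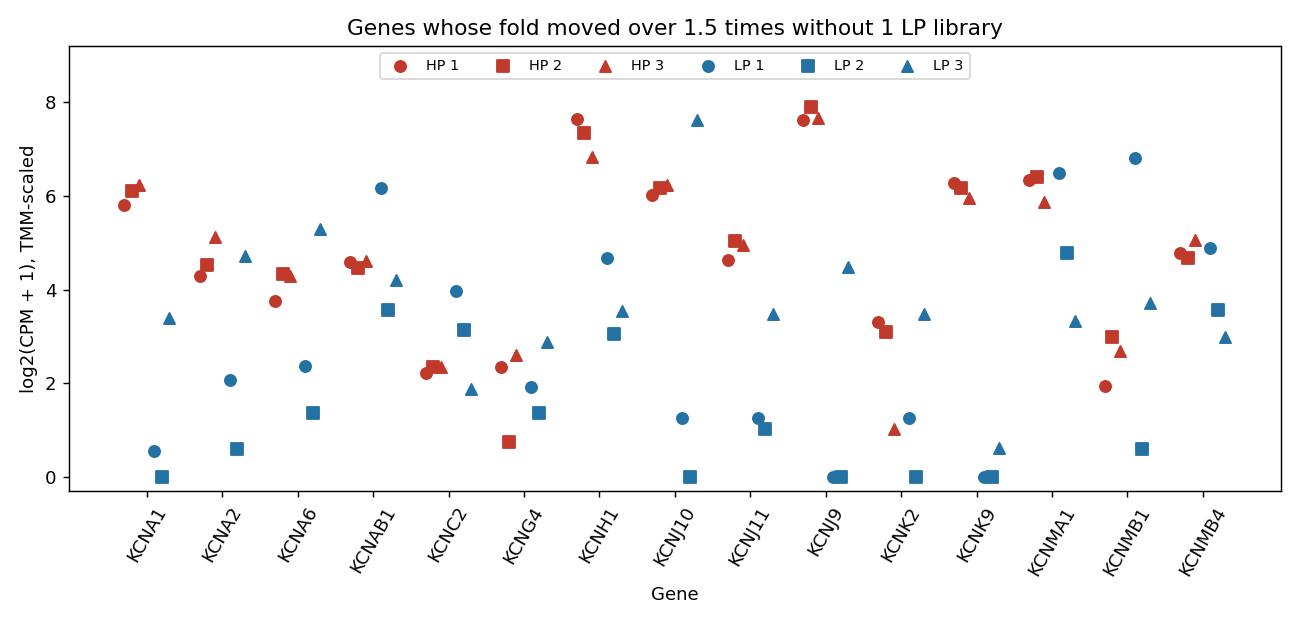
Level of 15 of the 17 genes whose fitted ratio of HP to LP moved by more than 1.5 times when 1 LP library was left out, as log2(CPM + 1) with TMM-scaled totals. Points are libraries (red HP, blue LP; circles, squares and triangles are replicates 1, 2 and 3). The LP triangle stands above the other LP points for KCNA1, KCNA2, KCNA6, KCNG4, KCNJ9, KCNJ10, KCNJ11, KCNK2 and KCNK9, and the LP circle for KCNAB1, KCNMA1, KCNMB1, KCNMB4, KCNH1 and KCNC2.

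The deposited TPM gave other sizes for several called genes, in the same direction. KCNIP4 was 17.6-fold and KCNK12 6.30-fold higher in HP with a pseudocount of 1, and KCNIP1 was 9.81-fold higher in HP and KCNB2 15.7-fold higher in LP with a pseudocount of 0.1. KCNA1 was 36.5-fold and 85.6-fold higher in HP with a pseudocount of 1 and 0.1. A pseudocount of 1, which understates the change of low genes, gave smaller folds for KCNC1 (12.2), KCNJ9 (8.31), KCNA3 (5.95), KCNJ12 (5.34), KCNF1 (2.52) and KCNJ11 (2.15), all toward HP, and for KCNT2 (12.4) and KCNA5 (3.64) toward LP. By limma-voom KCNJ9 was 194-fold, KCNA1 54.5-fold, KCNF1 23.7-fold and KCNJ11 10.5-fold higher in HP, and KCNA5 6.43-fold higher in LP.

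Genes that work with potassium channels but carry other names were taken from a list of 29, of which 17 could be tested. By edgeR 11 were called toward HP and 0 toward LP (0 at an unadjusted p of 0.05, 0 by DESeq2 and 0 by limma-voom), beside 27.1% and 24.1% of all tested genes. Their median log2 fold change was 2.23, and that of all tested genes 0.02. These values describe the partner genes that passed the filter on low counts. Among the called ones, SLC12A5 and DPP10 passed it only with the HP libraries. Among proteins that place Kv1 channels at axons, CNTNAP2 had 3609, 4304 and 3826 counts in HP against 353, 268 and 296 in LP, 9.25-fold higher in HP (edgeR, adjusted p = 3.42e-04). ADAM22 was 22.5-fold, ADAM23 7.50-fold and their secreted ligand LGI1 5.55-fold higher in HP (edgeR, adjusted p = 3.92e-04, 0.00140 and 0.0112), and LGI1 11.0-fold without LP replicate 3. CNTN2 missed the threshold (edgeR, adjusted p = 0.0763), but was 23.1-fold higher in HP without LP replicate 3 (5.84e-04) and was called by DESeq2 (0.0273) and limma-voom (0.0138). The scaffold genes DLG4, ANK3 and DLG2 were 6.04-fold, 3.52-fold and 2.10-fold higher in HP (edgeR, adjusted p = 0.00253, 0.00125 and 0.0410). DLG4 was not called with TPM and no filter (0.0714). With TPM and a pseudocount of 1, LGI1 was 9.68-fold, ANK3 5.50-fold, CNTNAP2 4.89-fold, DPP6 4.33-fold and DLG4 3.12-fold higher in HP. The DLG2 call did not hold without HP replicate 1 or 2 or LP replicate 1 or 2 (0.114, 0.0694, 0.106 and 0.0829) and with at least 10 CPM in 3 libraries (0.0540).

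SLC12A5, the neuronal potassium chloride cotransporter, had 33, 36 and 40 counts in HP against 2, 0 and 0 in LP, a ratio of counts per depth of 39.2 (95% counting interval 10.6 to 328, edgeR, adjusted p = 0.00160). Without LP replicate 1 no LP count was left and the bound was at least 8.33-fold. SLC12A2, which is also found outside neurons, was not called (edgeR, adjusted p = 0.462), with 174, 155 and 147 counts in HP against 25, 30 and 158 in LP and 4.18-fold higher in HP without LP replicate 3 (adjusted p = 8.32e-04). SLC12A2 was also called with the deposited TPM (0.00496 to 0.0117). LRRC38, a BK channel gamma subunit gene, was not called (edgeR, adjusted p = 0.179, or 0.0178 and 6.82-fold without LP replicate 3), and neither was VAPB (0.359).

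The 50 genes that were not tested had low counts throughout. Of these, 12 had no count in any library, 22 had at most 5 counts in a library, and 16 reached more, up to 24 counts, which KCNA4 reached in LP replicate 2, KCNE4 in LP replicate 1 and KCNMB2 in LP replicate 2. With no filter on low counts 38 of them entered the fit, and KCNV1 was called toward HP and KCNE4 and KCNMB2 toward LP (edgeR, adjusted p = 0.0342, 0.0209 and 0.0399). Low counts did not always mean a low TPM, as KCNN3 was at 13.7 to 21.6 TPM in HP and 19.6 to 65.3 TPM in LP.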

How the data were processed

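RNA of 6 samples labelled hypothalamus (3 HP, 3 LP) was read as amplified full-length cDNA on a Nanopore instrument, per the labels. The deposited tables hold estimated counts and TPM per gene made by the authors. Reads were mapped with minimap2 2.17-r941, per the submitters' processing notes, and for build, annotation, quantifier and the length treatment of TPM the status is: not given in the sources used here. Of the deposited count values, 24.0% to 29.8% per library were not whole, and they were rounded. PCR copies were not collapsed by molecular identifiers, so intervals and floors cover counting error only (95% Wilson for shares, exact for count ratios, 3 counts as floor, 1.10 to 1.51 CPM).

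The test was edgeR 4.0.16 (R 4.3.3), quasi-likelihood, two-sided, after its filter on low counts and TMM scaling, fitted on 13078 of 26067 features with Benjamini-Hochberg adjustment at 0.05. It was also run on simulated counts in which few genes changed, by balanced and smaller folds than the largest seen here. That run therefore does not show how the test behaves under differences as wide as these. Alternatives were library totals, DESeq2 1.42.0, limma-voom (limma 3.58.1), no filter, at least 10 CPM in 3 libraries, removal of the 10 genes above 1% of a library, deposited TPM as log2(TPM + 1) or log2(TPM + 0.1) in limma, and leaving out each library. Folds from TPM are on that log2 scale. The series' design names 3 sheep per group, and no label ties a library to an animal, so p-values measure the spread between these samples. The members, classes, partner and marker lists were chosen with earlier results of these data known. Every channel gene could be named, with full statistics for up to 4 genes per class and direction by smallest p, and partner genes past the threshold were named. Other partner and marker genes were named after their values were seen. Some channel, partner and marker genes are counted in the totals but are not reported here by name.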

Additional observations from a re-analysis of the deposited data

How the results depend on the processing

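All 26 called channel genes kept their direction in each alternative that tested them (15 for 23 genes, and 14 for KCNA5, KCNB2 and KCNT2, which the filter of 10 CPM left out), and 20 of the 26 were called in every alternative that tested them. Low counts kept 50 genes out of the test. The count of 23 genes higher in HP ranged from 20 to 26 when single libraries were left out. The 3 genes higher in LP became 5 with DESeq2, 5 with no filter and 0 with at least 10 CPM in 3 libraries, where fewer genes were tested, and 1 to 6 when single libraries were left out. The median log2 fold change of 1.60 was 1.85 with library totals, 2.15 with limma-voom, 0.51 with no filter, 2.63 with at least 10 CPM, 0.99 with log2(TPM + 1), 2.13 with log2(TPM + 0.1) and -0.00887 with log2(TPM + 1) and no filter, and 1.00 to 2.50 when single libraries were left out. The median of all genes was 0.27 with library totals, so that scaling moved all genes by about as much as the channel genes, and -0.20 with no filter, -0.31, -0.40 and -0.16 with the TPM settings in that order. By class, the 2 voltage-gated genes higher in LP became 1 with limma-voom, 1 with each TPM setting and 0 with at least 10 CPM, and 0 to 3 without single libraries. Calcium- or sodium-activated genes higher in HP numbered 0 to 1 without single libraries, and the 1 higher in LP became 2 with DESeq2, 2 with each TPM setting, 0 with at least 10 CPM and 1 to 2 without single libraries. Inward rectifier genes higher in HP numbered 3 to 6 without single libraries. Auxiliary genes higher in LP became 1 with DESeq2, 2 with no filter and 0 to 2 without single libraries. Partner genes higher in LP became 1 with TPM and no filter. Apart from the stricter filter, the cause of these moves was not tested. No paired analysis was possible because the labels give the groups no shared replicate numbers.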
